A study of Homo sapiens with 2 samples.

Results

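The cathepsins are the proteases of the lysosome, and 9 of them, all except cathepsin S and 5 relatives given further on, were examined together with legumain (LGMN), the protease that processes several of them. They were found as every probe set whose single gene symbol in the array annotation was CTSA, CTSB, CTSC, CTSD, CTSF, CTSH, CTSL, CTSO, CTSZ or LGMN. This gave 18 of the 54675 probe sets on the array and 10 of 19775 named genes, and all 10 genes were represented. The hepatospheres were spheroids of PLC/PRF/5, an established human hepatocellular carcinoma line, kept under cisplatin, which crosslinks DNA, combined with doxorubicin, which poisons topoisomerase II. The differentiated cells came from PLC/PRF/5 spheroids to which fetal bovine serum (FBS) was added so that they attached. With 1 array a group and no replicate, no difference could be tested and none has an error. Culture form, serum and drug treatment cannot be told apart, and the labels state neither doses and durations nor if the drugs had been given to the spheroids that became differentiated cells.

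Cathepsins are made as inactive precursors, carried to the lysosome by mannose 6-phosphate receptors and activated there when acid pH lets the propeptide be cut away. Most belong to the papain family and use a cysteine for catalysis, whereas cathepsin D uses aspartates, cathepsin A a serine, and legumain a cysteine in an unrelated fold that cuts after asparagine. Together they degrade proteins delivered by endocytosis and autophagy, and tumour cells can also secrete them; cystatins hold the cysteine enzymes in check.

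Transcription of many lysosomal genes is known to be driven by TFEB and its relatives, which bind E-box sequences with the core CACGTG. The promoters of 7 of the 10 genes were in the RefSeq table of promoter windows (GRCh38.p14, 250 bases before to 50 after the gene start); CTSB, CTSO and LGMN were not. The core CACGTG, which reads the same on both strands, was present in 3 of these 7 windows (CTSF, CTSD and CTSA) and in 7.26% of all 35116 windows. The 4 promoters below are shown because CTSF and CTSH had the largest differences, while CTSD and CTSA hold the same E-box core with no higher signal of 2-fold or more. Capitals mark CACGTG, and each sequence runs 5′ to 3′ on the gene's own strand. CTSF lies at chr11:66568557-66568856 (minus strand), CTSH at chr15:78944997-78945296 (minus), CTSD at chr11:1763878-1764177 (minus) and CTSA at chr20:45891085-45891384 (plus).
CTSF: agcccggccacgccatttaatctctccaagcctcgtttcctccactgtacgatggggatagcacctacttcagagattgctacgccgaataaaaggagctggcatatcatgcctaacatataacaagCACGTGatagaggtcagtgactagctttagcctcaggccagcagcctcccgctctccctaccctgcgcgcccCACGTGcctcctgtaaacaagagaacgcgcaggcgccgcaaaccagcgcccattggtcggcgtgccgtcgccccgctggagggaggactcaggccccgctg
CTSH: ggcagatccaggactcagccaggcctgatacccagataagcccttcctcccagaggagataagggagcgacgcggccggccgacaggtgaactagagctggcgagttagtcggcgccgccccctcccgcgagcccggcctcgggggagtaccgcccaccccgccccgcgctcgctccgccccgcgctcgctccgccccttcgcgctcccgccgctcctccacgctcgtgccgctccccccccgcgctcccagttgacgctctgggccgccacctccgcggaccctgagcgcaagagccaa
CTSD: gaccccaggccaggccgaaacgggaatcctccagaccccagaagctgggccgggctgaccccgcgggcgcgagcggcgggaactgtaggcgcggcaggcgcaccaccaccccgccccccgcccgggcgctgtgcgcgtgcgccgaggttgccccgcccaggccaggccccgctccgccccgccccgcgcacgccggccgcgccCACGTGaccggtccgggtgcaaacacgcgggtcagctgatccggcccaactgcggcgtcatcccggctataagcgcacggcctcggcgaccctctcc
CTSA: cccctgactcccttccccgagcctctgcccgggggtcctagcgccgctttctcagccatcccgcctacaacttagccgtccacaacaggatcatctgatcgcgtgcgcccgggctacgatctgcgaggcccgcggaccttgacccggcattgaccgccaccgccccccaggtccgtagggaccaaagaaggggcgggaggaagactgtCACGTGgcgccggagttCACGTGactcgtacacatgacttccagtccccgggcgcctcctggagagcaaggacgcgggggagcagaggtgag

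In CTSF the cores began 123 and 51 bases before the gene start, in CTSA 42 and 25 bases before it, and in CTSD 47 bases before it. GGGCGG, the GC box, was found on either strand in 6 of the 7, all but CTSF, against 45% of all windows. CCAAT was found on either strand in 3 of the 7 (CTSL, CTSF and CTSC), against 34.6% of all. TATAAA was in none of the 7 on either strand, 0 against 11.5% of all windows. These matches are letters in a window and were not measured as binding.

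Values are MAS5 signals, the array's summary brightness for a probe set on a linear scale, and each difference given is the log2 signal in hepatospheres minus differentiated cells. A signal below the floor of 84.1, the higher of the medians of the 2 arrays, was treated as equal to the floor, so such a fold is a lower bound. Of the 10 genes, 9 had a signal at or above the floor on 1 or both arrays, and CTSZ did not. CTSF and CTSO reached it in hepatospheres only, so they count among the 9 through that array alone, and CTSO gives no usable difference. Of all 12766 measured genes, 1703 reached the floor on 1 array only, whether that of hepatospheres or of differentiated cells. At least 2-fold higher in hepatospheres were 3 of the 9 (CTSF, CTSH and LGMN), or 33.3%, where 12.5% of all 12766 measured genes were. At least 2-fold lower were 0 of the 9, where 8.83% of all measured genes were. Median centring gave 2 higher (CTSF and CTSH) and 1 lower (CTSD), where 9.09% of all genes were higher and 14.6% lower. Scaling to the poly(A) control RNAs gave 1 higher (CTSF) and 2 lower (CTSC and CTSD) of 8 measured, where 3.22% were higher and 46.5% lower. The median over the 9, CTSO included at its floor-set value, was 0.33, against 0.05 over all measured genes. With a floor at the 60th percentile, which left CTSO out, the median was 0.65 over 8 genes, against 0.01 over all measured genes. Because the array holds RNA from a whole culture, more RNA per cell and more cells of a kind cannot be told apart.

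**Figure D1:**
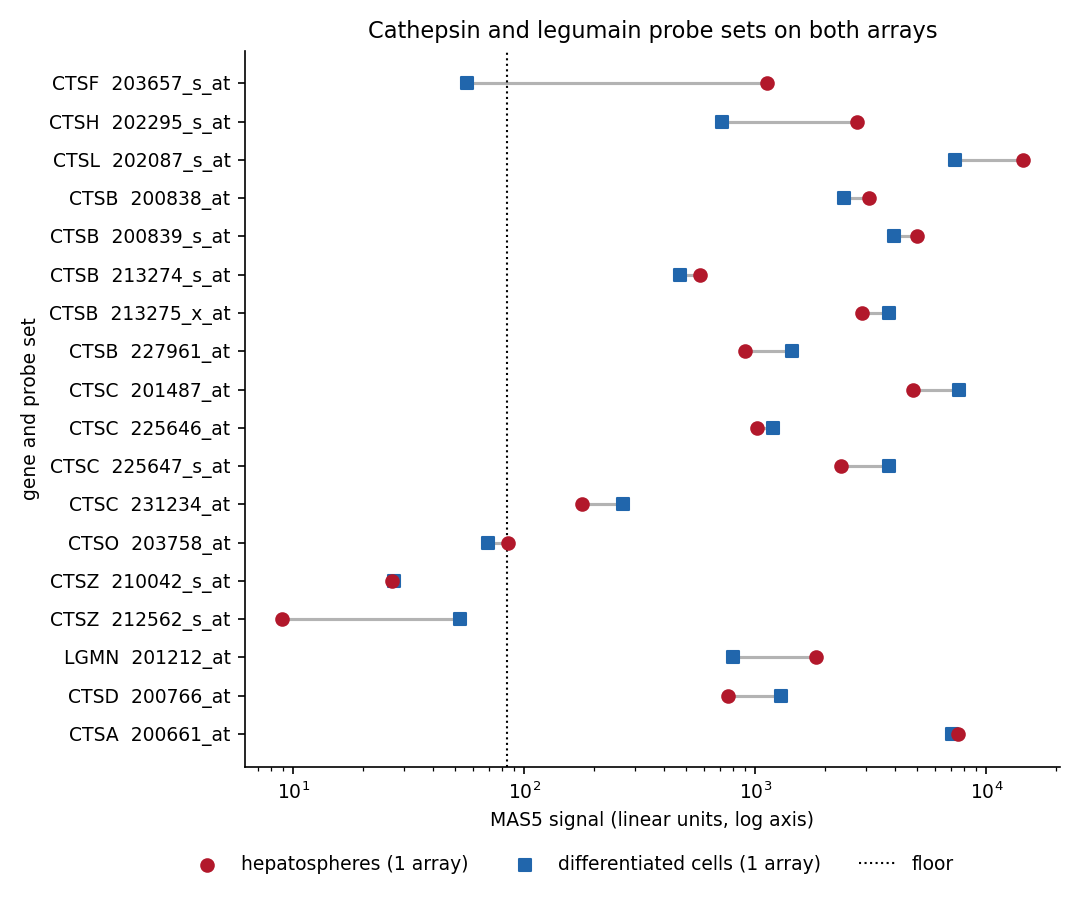
MAS5 signal (log axis) of each of the 18 probe sets in hepatospheres (circles) and differentiated cells (squares), 1 array each, with the floor of 84.1 as a dotted line. CTSF, CTSH, CTSL and LGMN lie higher in hepatospheres, the 4 CTSC probe sets and CTSD lower, the 5 CTSB probe sets go both ways, and CTSZ stays left of the floor; these directions are for signals as deposited, and with scaling to the poly(A) controls CTSL and all 5 CTSB probe sets lie lower in hepatospheres.

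Both arrays read as the hepatocellular line they are labelled: 9 of 9 usable hepatocyte and hepatoma markers reached the floor on both. They went both ways, 2 of them 2-fold higher and 2 lower. The plasma proteins TTR and ALB stood at 2.49 and 1.44, and the fetal liver protein AFP at -2.50, with 433 in hepatospheres and 2451 in differentiated cells. Hybridisation controls differed 1.13-fold, but poly(A) control RNAs, which are added before labelling, read 2.04-fold higher in hepatospheres (median of 24 probe sets, range 1.65 to 2.61). Scaling to them lowers the median of all genes to -0.93, against 0.05 as deposited, so directions here are relative to the bulk of genes. Of all genes at least 2-fold apart, 58.7% were higher with the deposited scaling, 38.3% with median centring and 6.47% with poly(A) scaling. The 3' to 5' signal ratio of ACTB was 2.64 in hepatospheres and 1.48 in differentiated cells, and that of GAPDH 1.04 and 0.987; the part of RNA integrity in the results below was not tested.

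Among the papain-family members, CTSF stood furthest apart. CTSF, a cysteine protease whose long propeptide carries a cystatin-like domain and whose loss causes a neuronal storage disease, read 1119 in hepatospheres and 56.2 in differentiated cells. The second value is below the floor, so CTSF was at least 13.3-fold higher in hepatospheres (at least 3.73 on the log2 scale). Its rank among genes depends on the floor and is not given. Setting the floor to the 60th percentile lowered that bound to 2.87. CTSF was above the floor in hepatospheres only, on its single probe set, whose name ends in _s_at and marks sequence shared between transcripts.

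CTSH, an aminopeptidase that also cuts within chains, read 2746 in hepatospheres and 715 in differentiated cells, 3.84-fold higher (1.94), with 96.8% of measured genes below it. Both signals were well clear of the floor. CTSL, the major lysosomal endopeptidase of the family, read 14352 in hepatospheres and 7278 in differentiated cells, a 1.97-fold higher signal (0.98) that stayed just short of 2-fold. With poly(A) scaling CTSL stood at -0.05, whereas CTSF (2.96) and CTSH (0.91) stayed above 0. CTSH and CTSL, like CTSF, were each read by 1 probe set with a shared-sequence name. CTSV, the closest human relative of CTSL, read 3829 in hepatospheres and 1852 in differentiated cells on a probe set of its own; signal shared between the 2 genes was not tested.

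CTSB, which acts both as an endopeptidase and by clipping dipeptides from the C-terminus, had 5 probe sets, and they disagreed. The one with the highest mean signal read 4997 in hepatospheres and 3987 in differentiated cells, 0.33 on the log2 scale. The second read 3116 in hepatospheres and 2407 in differentiated cells (0.37), and the third read 576 and 471 in the same order (0.29). These 3 were slightly higher in hepatospheres, while the remaining ones were lower. The fourth read 2893 in hepatospheres and 3799 in differentiated cells (-0.39), and the fifth read 900 in hepatospheres and 1434 in differentiated cells (-0.67). None of the 5 was 2-fold apart. The mean over them was -0.02, so CTSB had no common direction. Their range of 1.04 compares with a median range of 0.92 over the 729 genes that had 4 or 5 probe sets above the floor on both arrays, of which 54.3% had probe sets in both directions.

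CTSC, the dipeptidyl peptidase that activates granule serine proteases in white blood cells, was lower in hepatospheres on all 4 of its probe sets. Its probe set of highest mean signal read 4786 in hepatospheres and 7598 in differentiated cells, 1.59-fold lower (-0.67). The second read 2352 in hepatospheres and 3775 in differentiated cells (-0.68). For the third the signals were 178 in hepatospheres and 267 in differentiated cells (-0.59), and for the fourth they were 1016 and 1193 in the same order (-0.23). The 4 probe sets thus spanned 0.45, below the median range of 0.92 for such genes. They share the same RNA and are not replicates. CTSC and CTSH, both of which remove residues from the N-terminus, therefore lay on opposite sides of 0, at -0.67 and 1.94, also with each scaling tried.

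CTSO, a papain-family member of little-known function, read 84.5 in hepatospheres, barely at the floor, and 69.4 in differentiated cells. No usable difference can be had at such a signal. CTSZ, a carboxypeptidase, was below the floor on both arrays and both probe sets, at 26.6 and 8.93 in hepatospheres and at 27.2 and 52.5 in differentiated cells, so it gets no fold. A signal below the floor does not show that the transcript was absent. Of the 7 papain-family genes, 6 were measured and 2 were at least 2-fold higher.

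**Figure D2:**
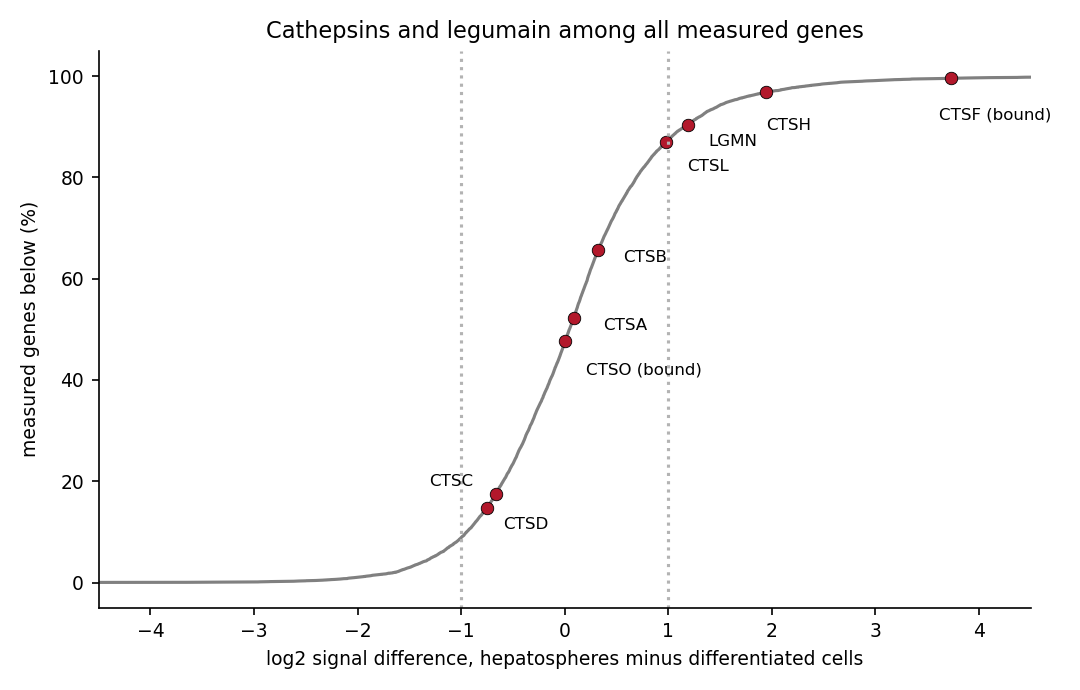
Cumulative share of the 12766 measured genes (y axis, percent) against the log2 signal difference, hepatospheres minus differentiated cells, with the 9 measured cathepsins and legumain as points and 2-fold as dotted lines. CTSF (placed at its lower bound), CTSH and LGMN lie right of the upper line, with 96.8% and 90.4% of genes below CTSH and LGMN, CTSL lies just left of it, and CTSD and CTSC sit with 14.7% and 17.5% of genes below; with poly(A) scaling only CTSF lies past the upper line, CTSC (-1.70) and CTSD (-1.78) lie past the lower one, and CTSL, CTSB and CTSA lie below 0.

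Outside the papain family, LGMN, which converts single-chain cathepsins B, H and L into their mature chains, read 1825 in hepatospheres and 801 in differentiated cells. That is 2.28-fold higher (1.19) on its only probe set, one without a shared-sequence name. With median centring it stood at 0.93 and with poly(A) scaling at 0.16, short of 2-fold in both. CTSD, the main aspartic protease of the lysosome, read 762 in hepatospheres and 1285 in differentiated cells, 1.69-fold lower (-0.75). CTSD was the lowest of the 9. It reached -1.01 with median centring and -1.78 with poly(A) scaling, where CTSC stood at -1.70. CTSA, a serine carboxypeptidase that also shields beta-galactosidase and neuraminidase 1 from degradation, read 7551 in hepatospheres and 7115 in differentiated cells (0.09). Its signals were close on the 2 arrays, although poly(A) scaling put it at -0.94 and median centring at -0.17. NEU1, the neuraminidase that CTSA protects, named after its value was seen, read 5780 in hepatospheres and 2476 in differentiated cells (1.22, or 0.97 with median centring and 0.19 with poly(A) scaling).

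Set beside the promoter windows, the 3 genes with the E-box core were CTSF at 3.73 or more, CTSA at 0.09 and CTSD at -0.75. Of the 4 windows without it, CTSH stood at 1.94, CTSL at 0.98 and CTSC at -0.67, and CTSZ was not measured. Nothing about a factor's part in these values was tested.

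At a looser threshold of 1.5-fold, 4 of the 9 genes were higher (CTSF, CTSH, LGMN and CTSL) and 2 lower (CTSC and CTSD), where 23.6% and 20.3% of all measured genes were. At 4-fold only CTSF was higher, 1 of 9, and 0 were lower, where 2.99% and 1.05% of all genes were. Relative to the median of all genes, CTSF, CTSH, CTSL and LGMN stood above 0 with each alternative that gave them a value, by at least 2.86, 1.78, 0.86 and 1.06. On the same scale CTSC and CTSD stood below 0 with all 10 alternatives, between -0.79 and -0.58 for CTSC and between -0.88 and -0.71 for CTSD. Most alternatives could hardly change these signs. Median centring and poly(A) scaling move all genes alike, a shift that this scale largely takes out by construction. Other floors do not alter a gene well above the floor on both arrays. Averaging does not alter a gene with 1 probe set. Leaving out probe sets with shared-sequence names removed CTSF, CTSH and CTSL from view. Of the remaining 6 genes 1, LGMN, was then 2-fold higher and 0 lower, where 12.7% and 9.66% of all genes were, so the higher count was near the all-gene share.

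**Figure D3:**
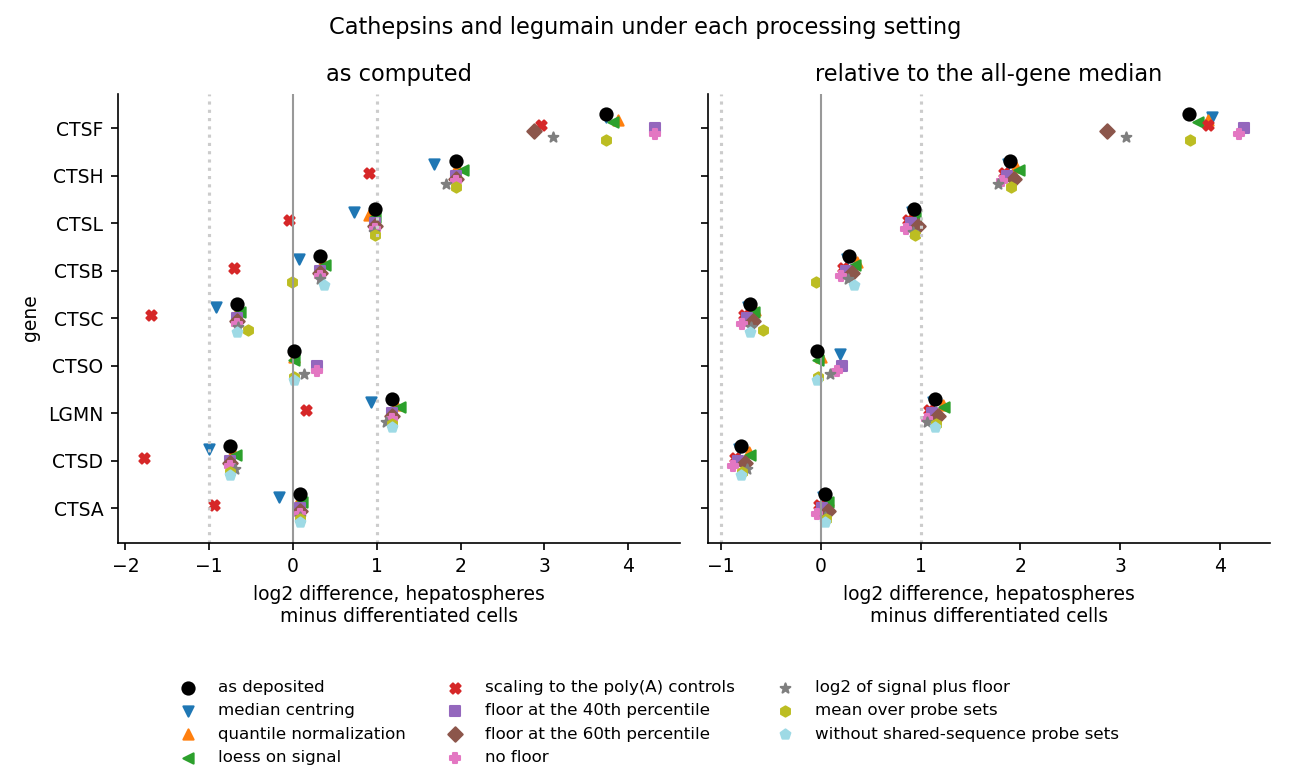
Log2 difference, hepatospheres minus differentiated cells, of the 9 measured genes under each processing setting (symbols), as computed (left) and relative to the median of all genes (right); dotted lines mark 2-fold. On the left, poly(A) scaling moves CTSF to 2.96, CTSH to 0.91, LGMN to 0.16 and CTSL to -0.05, whereas on the right CTSF, CTSH, CTSL and LGMN lie above 0 and CTSC and CTSD below 0 with each setting that gave a value. A shift common to all genes is largely taken out on the right by construction.

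Of the 6 remaining cathepsins 4 were measured, and 3 of these were 2-fold higher and 0 lower (median 1.28), where 12.5% and 8.83% of all genes were. Cathepsin S (CTSS), an endopeptidase of antigen-presenting cells, read 507 in hepatospheres and 148 in differentiated cells (1.78, or 0.75 with poly(A) scaling). That was its probe set of highest mean signal. Another CTSS probe set read 510 in hepatospheres and 98.8 in differentiated cells (2.37). The third read 144 and 53.85 in the same order (0.77 or more). CTSK, the collagen-degrading cathepsin of osteoclasts, read 561 in hepatospheres and 198 in differentiated cells, 2.84-fold higher. CTSV stood at 1.05 (0.80 with median centring), and CTSE, an aspartic protease, at 0.61 or more from 128 in hepatospheres against 47.4 in differentiated cells, while CTSG and CTSW were below the floor on both arrays. The CTSE bound was short of 2-fold as deposited, but CTSE stood at 1.37 with a 40th-percentile floor and 1.43 without a floor. Those settings counted 4 and 5 of the 6 as 2-fold higher. With poly(A) scaling 0 of those still measured were 2-fold higher, and their median was 0.47.

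The shares of all measured genes to set beside the list counts that follow are 12.5% higher and 8.83% lower as deposited, 9.09% and 14.6% with median centring, and 3.22% and 46.5% with poly(A) scaling. Cathepsin inhibitors went both ways, with 2 of 6 measured genes higher and 1 lower (median -0.02, mean 0.22), and with poly(A) scaling 1 higher and 2 lower (median -0.83). CSTA, the cytosolic inhibitor stefin A, read 957 in hepatospheres and 222 in differentiated cells (2.11), and CST3, the secreted cystatin C, read 8844 and 3844 in the same order (1.20, or 0.95 with median centring). KNG1, the kininogen precursor whose cystatin domains bind cysteine cathepsins, read 2218 in hepatospheres and 5841 in differentiated cells (-1.40). Mannose 6-phosphate sorting genes had 1 of 8 higher, which is the all-gene share, and 0 lower (median -0.04). That one was GNPTG, a subunit of the enzyme that builds the sorting tag (1.06, but 0.80 with median centring and 0.96 with log2 of signal plus floor). With poly(A) scaling 0 of 8 were higher and 4 lower (median -1.07). GGA1, a sorting adaptor, stood at 0.61 and the receptor M6PR at -0.58.

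Proton pump subunits and accessory proteins, which acidify the lysosome, had 0 of 16 genes 2-fold apart (median 0.02), and 8 lower with poly(A) scaling (median -1.01). As deposited ATP6AP1 stood at 0.97, ATP6AP2 at 0.73 and ATP6V1H at -0.89. Of 10 MiT/TFE regulators 1 was higher and 1 lower (median 0.01, mean -0.11), and with poly(A) scaling 0 were higher and 5 lower (median -1.02). TFEB, the lysosomal transcription factor, read 206 in hepatospheres and 98.7 in differentiated cells (1.06), the second close to the floor. It was short of 2-fold under 7 of the 10 alternatives, between 0.03 with poly(A) scaling and 0.93 with loess. FLCN, which restrains these factors, stood at -1.33, and RRAGC, a GTPase of the nutrient-sensing complex on the lysosome, at -0.94. With the mean over probe sets they stood at -0.20 and -0.07.

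Soluble lysosomal enzymes other than cathepsins had 11 of 26 measured genes higher and 1 lower (median 0.87). Median centring gave 4 higher and 2 lower, the mean over probe sets 7 higher and 0 lower, and poly(A) scaling 1 higher and 3 lower (median -0.16). On its probe set of highest mean signal GALC, which degrades galactosylceramide, was at least 8.95-fold higher, with 43.7 in differentiated cells, below the floor. LIPA, the acid lipase, was 4.02-fold higher and ARSA, the sulfatide sulfatase, 3.11-fold. Averaged over probe sets, GALC stood at 1.92, LIPA at 1.44 and ARSA at 1.46. Scaled to the poly(A) controls, they stood at 2.385, 0.98 and 0.61 in the same order. Membrane and lipid-transfer genes of the lysosome had 2 of 17 higher, close to the all-gene share, and 0 lower (median 0.40). These were the cholesterol exporter NPC1 (1.63) and the membrane glycoprotein LAMP2 (1.15), and the transmembrane protein LAPTM4A stood at 0.92. With the mean over probe sets NPC1 stood at 0.04 and LAMP2 at 0.90, so that 0 of the list were higher. Without shared-sequence probe sets LAMP2 stood at 0.45 and NPC1 at 1.63, and 1 of the list was higher. Median centring gave 1 higher and 2 lower, and poly(A) scaling 0 higher and 7 lower (median -0.63). Over all these lists, 20 of 87 genes were higher and 3 lower, with a median of 0.33. The median of the 9 cathepsins and legumain was the same to 2 decimals, but it was the value of CTSB, whose probe sets disagreed. Averaging probe sets gave 0.09 for cathepsins and legumain against 0.28 for these lists, and omitting shared-sequence names gave 0.05 against 0.32. A 60th-percentile floor gave 0.65 against 0.33, and poly(A) scaling -0.38 against -0.70, both without CTSO. Under the remaining alternatives the 2 medians lay close, such as 0.36 against 0.34 with quantile scaling. With median centring the 87 split into 8 higher and 8 lower, and with poly(A) scaling into 2 higher and 29 lower among 86.

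**Figure D4:**
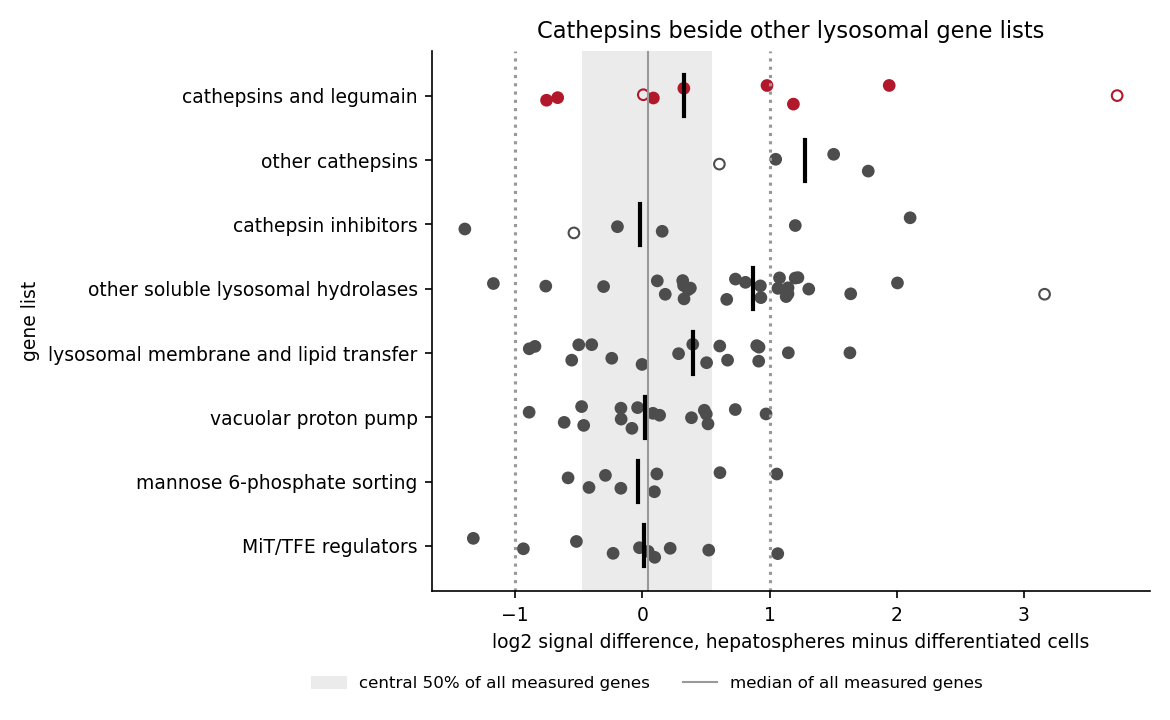
Log2 signal difference, hepatospheres minus differentiated cells, of each measured gene (points; open points are lower bounds) in the cathepsin and legumain set and in the other lysosomal lists, with list medians as black bars and the central 50% of all measured genes shaded. Cathepsins and legumain spread from -0.75 to 3.73 around a median of 0.33, the other soluble enzymes lie around 0.87, and the proton pump, sorting and MiT/TFE lists sit near 0; with poly(A) scaling the medians of these 5 lists are -0.38, -0.16, -1.01, -1.07 and -1.02 in the same order, where that of all genes is -0.93.

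Cathepsins are abundant in macrophages and fibroblasts, so their markers were read beside these values. Of 9 usable macrophage markers 6 were below the floor on each array. CD14, CD163, PTPRC, TYROBP and AIF1 were below it on both, with PTPRC at 4.38 in hepatospheres and 25.1 in differentiated cells. CSF1R reached it in hepatospheres only, at 97.7 against 10.1 in differentiated cells, and ITGAM in differentiated cells only, at 73.2 in hepatospheres and 122 in differentiated cells. FCER1G read 157 in hepatospheres and 116 in differentiated cells, above the floor on both. The summed signal of the 9 was 10928 in hepatospheres and 6714 in differentiated cells, nearly all of it LYZ, at 10454 and 6364. LYZ stood at 0.72 as deposited, 1.77 with the mean over probe sets and -0.31 with poly(A) scaling. As deposited, 5 of 7 fibroblast markers reached the floor in hepatospheres and 1 of 7, COL1A1, in differentiated cells. LUM, COL3A1, DCN and THY1 were thus measured through hepatospheres alone, which fixed their direction as higher in hepatospheres. Of all 12766 measured genes, 1703 reached the floor on 1 array only, whichever it was. The summed signals of the 7 fibroblast markers were 4176 and 505, with most of the first from LUM. LUM read 2677 in hepatospheres and 1.14 in differentiated cells and COL3A1 679 and 42.6. With the mean over probe sets LUM stood at 2.43 and COL3A1 at 0.77. With poly(A) scaling LUM stood at 4.21, COL3A1 at 2.23 and DCN at -0.11. COL1A1 read 471 in hepatospheres and 290 in differentiated cells and THY1 108 and 78.5, both short of 2-fold. DCN read 139 in hepatospheres and 76.2 in differentiated cells, while COL1A2 (35.6 and 5.67) and PDGFRB (66.9 and 11.1) were below the floor on both. The part of these genes' expression in the cathepsin differences was not tested. Of 5 endothelial markers only PECAM1 reached the floor, at 3787 in hepatospheres and 3388 in differentiated cells.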

How the data were processed

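Per the labels' protocols, total RNA was extracted with Trizol from 2 PLC/PRF/5 cultures and biotin-labelled, and each was hybridised to 1 Affymetrix array. The authors deposited intensity values, a linear MAS5 signal for each probe set. The submitters' processing notes name MAS5 without a version or scaling target. The 2% trimmed mean was 500.1 on both arrays. Precision is limited by having 1 array a group. Of 54675 probe sets, 62 were controls, 41091 had 1 gene symbol, 1801 several and 11721 were unnamed here; 41037 matched a RefSeq gene by identifier. The probe set of highest mean log2 signal represented its gene. Calls were folds of at least 2, with a floor at the 50th percentile. From the lists, named genes were the up to 3 of largest absolute difference and all cathepsins; NEU1 and further cell type markers were named after their values were seen. Genes and lists were chosen with earlier results of these data known. Counting was tested on simulated data. Alternatives were 4 scalings (median centring, quantile, poly(A) controls, and loess with span 0.3), other floors (the 40th percentile, the 60th, or none), adding the floor to each signal before log2, averaging all probe sets of a gene, omitting those with shared-sequence names (_s_at, _x_at or _a_at), and folds of 1.5 and 4. Software was Python 3.11.15 with numpy 2.4.6, statsmodels 0.14.6, pandas 2.3.3 and matplotlib 3.10.9.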

Additional observations from a re-analysis of the deposited data

How the results depend on the processing

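Scaling to the poly(A) controls left 1 of 8 cathepsins and legumain at least 2-fold higher and 2 lower, with a median of -0.38, where 46.5% of all genes were lower; CTSB then stood at -0.70 and CTSL at -0.0506. The other lysosomal lists together then had 2 genes higher, 29 lower and a median of -0.70 (other soluble enzymes -0.16, membrane and lipid transfer -0.63), and probe sets of 2 genes, CTSB and CTSC, each went one way, against 1 gene as deposited. By construction it lowers all hepatosphere signals by the same factor. Median centring gave 1 of 9 lower and split the other lists 8 higher and 8 lower. Leaving out shared-sequence probe sets left 1 of 6 genes higher, where 12.7% of all genes were, since 3 had no other probe set. The 4-fold threshold gave 1 higher and the 1.5-fold threshold 2 lower. With the mean over probe sets, which takes in the CTSB probe sets at -0.39 and -0.67, CTSB stood at -0.0156 and the other lists had 13 higher. Without a floor 97 genes of these lists counted as measured, against 87 as deposited, and 5 were lower. Beyond these changes in what was counted, the cause was not tested. Of 81 summary values recomputed, 66 stayed within 1.5 times with 0 changes of sign, 13 moved further and 2 reversed. For counts this is a ratio, but for medians and log2 differences it is a shift in signal of up to 1.5-fold. That margin is wider than the median of 0.33 itself. The fall of the cathepsin and legumain median from 0.33 to 0.07 with median centring thus counted as staying within it. The median of the other lists fell from 0.33 to 0.07 as well. Of 295 values for single genes and lists, 238 stayed within 1.5 times, 13 of them with a changed sign, 52 moved further and 5 reversed. The probe set agreement was recomputed as a choice made after seeing the data. No paired analysis was possible because each group had 1 array. Signals near the floor limit CTSF, CTSO and CTSZ.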

Other observations

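Differences were also read for the chromosomal neighbours of the cathepsins, as the 10 measured genes nearest to each by gene order, 5 on each side in the RefSeq table of GRCh38.p14. The median difference was -0.20 around CTSF on chromosome 11, 0.30 around CTSH on chromosome 15, 0.05 around LGMN on chromosome 14 and 0.15 around CTSL on chromosome 9. Around CTSC and CTSD, both on chromosome 11, it was -0.25 and 0.12, around CTSA -0.25, around CTSB 0.17, around CTSO 0.60 and around CTSZ 0.49. Among the 10 neighbours, 3 were 2-fold higher around CTSL and around CTSO, 2 around CTSA and CTSZ, 1 around CTSF, CTSH and LGMN, and 0 around CTSB, CTSC and CTSD, where 12.5% of all measured genes were. At least 2-fold lower were 2 around CTSF and CTSA, 1 around CTSL, CTSO and CTSZ, and 0 around CTSB, CTSC, CTSD, CTSH and LGMN, where 8.83% of all measured genes were.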
